A study of Homo sapiens with 6 samples.

Results

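Oxidative phosphorylation is carried out in the inner mitochondrial membrane by electron-transferring complexes I to IV and by ATP synthase, also called complex V. Complex I takes electrons from NADH and complex II takes them from succinate, coenzyme Q passes them to complex III, cytochrome c carries them to complex IV, and complex IV hands them to oxygen. Complexes I, III and IV pump protons, and complex V uses the returning protons to make ATP. Most subunits are encoded in the nucleus and imported, and a small set is encoded by mitochondrial DNA. Glioma cells are known to draw on both respiration and glycolysis.

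The genes described here are the nuclear-encoded subunits of these complexes, with cytochrome c. They were chosen by symbol: protein-coding genes named NDUFA, NDUFB, NDUFC, NDUFS or NDUFV with a number, SDHA to SDHD, the UQCR genes, the numbered COX5 to COX8 genes, the ATP5 genes, CYC1 and CYCS. No measured value entered the symbol rule, though members and lists were chosen with earlier results of these data known. The rule found 84 genes among the 20398 genes and loci listed in all 6 libraries. By complex they are 36 genes of complex I, 4 of complex II, 9 of complex III, 15 of complex IV and 19 of complex V, with CYCS as the only electron carrier. NDUFA4 was counted with complex IV, of which its protein is a subunit despite the gene's name. The symbol pattern leaves out COX4I1, COX4I2, NDUFAB1 and COX7A2L, which are given separately, and UQCRHL was not analysed here.

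RNA was sequenced from U251 cells, an established human glioblastoma line, in 2 groups of 3 libraries. The first group is labelled control, with no word on whether these cells received a vector. The second group is labelled as U251 with stable overexpression of XLOC013218, a long noncoding RNA. The submitters call the 3 replicates of each group independent biological ones, and whether the overexpressing cells are 1 clone or a pool was not stated, so p-values measure the spread between these cultures.

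Levels are FPKM, fragments scaled by transcript length and by the library's mapped fragments, as deposited. FPKM carry no read totals, so depth in reads is unknown. Summed over the 20330 Ensembl genes they came to between 598683 and 621922 per library. Among 10 markers of glioma and astrocytes, VIM lay between 3502 and 4011 FPKM and CD44 between 1042 and 1239 FPKM, while S100B, AQP4 and ALDH1L1 stayed under 1 FPKM in every library. The summed level of these 10 markers ran from 5072 to 5455 FPKM in control libraries and from 4792 to 5016 FPKM in overexpressing ones, without overlap. Most of that sum was VIM and CD44, and each of them alone overlapped between the groups (limma adjusted p = 0.541 and 0.496). None of the 7 that were tested passed. At an unadjusted p under 0.05, 2 of the 7 were lower, SOX2 and GFAP, as were 6.90% of all tested genes. GFAP, an astrocyte filament protein, had control values of 34.7, 46.0 and 44.1 FPKM and overexpression values of 30.1, 14.4 and 20.4 FPKM (log2 difference -0.96, limma adjusted p = 0.107). The 16 markers of other cell types summed to 11.9 to 13.1 FPKM in control libraries and 11.0 to 15.1 FPKM in overexpressing ones, with CD3E at 0 in all 6 and most of the sum from SYT1, at 6.93 to 9.35 FPKM. The part of these markers in the values below was not tested.

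The start sites of many of these genes are known to carry sites for NRF1, for ETS-family factors such as GABPA, and for YY1, so their promoters are shown for 6 of the members whose values are given below. RefSeq promoters (GRCh38.p14) were matched for 68 of the 84 members. Each line gives the 110 bases directly upstream of the annotated start, on the gene's strand, in lower case. Capitals mark NRF1 matches (GCGCA and GCGC with any 1 base between them), ETS matches (CCGGAAG) and CCAAT boxes (CCAAT), all searched on both strands together with the YY1 core (AAGATGGC).
SDHA, chr5:218210-218319, + strand: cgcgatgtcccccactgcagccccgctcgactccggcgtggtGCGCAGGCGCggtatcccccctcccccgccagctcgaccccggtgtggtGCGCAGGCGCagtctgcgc
SDHD, chr11:112086763-112086872, + strand: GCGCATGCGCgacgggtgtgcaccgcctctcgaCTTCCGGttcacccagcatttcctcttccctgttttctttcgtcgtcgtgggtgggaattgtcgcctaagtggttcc
UQCR11, chr19:1605463-1605572, - strand: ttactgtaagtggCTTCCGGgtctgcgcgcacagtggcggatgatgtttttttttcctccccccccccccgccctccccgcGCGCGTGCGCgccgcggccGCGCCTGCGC
NDUFA6, chr22:42090773-42090882, - strand: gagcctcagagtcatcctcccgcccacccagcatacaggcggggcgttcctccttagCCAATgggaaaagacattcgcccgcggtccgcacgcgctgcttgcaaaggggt
ATP5MC1, chr17:48892677-48892786, + strand: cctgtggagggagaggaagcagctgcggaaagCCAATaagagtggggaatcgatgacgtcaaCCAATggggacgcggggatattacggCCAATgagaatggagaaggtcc
COX7B, chrX:77899358-77899467, + strand: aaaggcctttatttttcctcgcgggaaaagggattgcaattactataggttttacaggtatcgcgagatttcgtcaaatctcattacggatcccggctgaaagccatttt

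Within the whole table window, from 250 bases before the start to 50 after it, an NRF1 match was found in 17 of the 68 member promoters (25%), against 12.5% of the promoters of other tested genes and 6.28% of all promoters in the table. The ETS core was found in 27.9% of member promoters, against 20.4% and 10.7%. The YY1 core was found in 16.2%, against 5.61% and 3.03%, and only 1 of those 11 members had its match before the start. The CCAAT box was as frequent in members (36.8%) as in other tested genes (37.3%). No 2 of these motifs shared bases in a member promoter. These are descriptions of letters in a window and not of binding.

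For the genes that encode the factors named for these motifs, the groups overlapped. NRF1 averaged 11.0 ± 0.748 FPKM in control and 10.3 ± 1.57 FPKM under overexpression (SD, n = 3 per group). GABPA, the DNA-binding partner of an ETS-family dimer, averaged 7.18 ± 0.402 and 7.36 ± 0.435 FPKM, and YY1 averaged 44.0 ± 2.38 and 41.2 ± 2.10 FPKM. None of them passed the test (limma adjusted p = 0.793, 0.916 and 0.590).

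The comparison asked whether the RNAs of the respiratory chain differ when XLOC013218 is overexpressed. Of the 84 members, 78 averaged 1 FPKM or more and were tested, together with all other such genes, with limma on log2(FPKM + 1). None of the 78 passed an adjusted p of 0.05 in either direction, where 0.520% of all 11731 tested genes did. At an unadjusted p under 0.05, 5 members were higher and 2 lower in overexpressing cells. These are 6.41% and 2.56% of the members, against 5.81% and 6.90% of all tested genes, so with these values the share higher was near the background and the share lower was below it. After rescaling to TPM, transcripts scaled to the same total in each library, 5 members (6.41%) were higher and 6 (7.69%) lower, against 4.76% and 8.07% of all tested genes, so the share lower was then near the background.

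The differences between the groups were small throughout. The median log2 difference of the 78 members, overexpression minus control on the log2(FPKM + 1) scale, was -0.0055, beside -0.0008 over all tested genes, and 36 members were higher and 42 lower. The lowest value was -0.16 for NDUFB5 and the highest 0.29 for COX7B. The median size of the difference, regardless of sign, was 0.0394 for members and 0.0799 for all tested genes. Over the 5096 tested genes at or above the level of the lowest tested member, NDUFV3, it was 0.0654. Those genes had a median level of 47.1 FPKM, against 153 FPKM for the members, so the 2 sets were not matched for level. In 71 of the 78 members the group means differed by less than 1.1-fold.

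The 95% intervals show how large a difference the data allow. All 78 intervals lay inside a 1.5-fold difference in either direction, and 70 lay inside a 1.2-fold difference. The 8 that reached further were COX7B, CYCS, ATP5MG, ATP5MC1, NDUFA6, NDUFB5, UQCR11 and UQCRC2. Only 18 intervals lay inside a 1.1-fold difference, so for the other 60 members a difference beyond 1.1-fold was not excluded with 3 libraries per group.

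**Figure D1:**
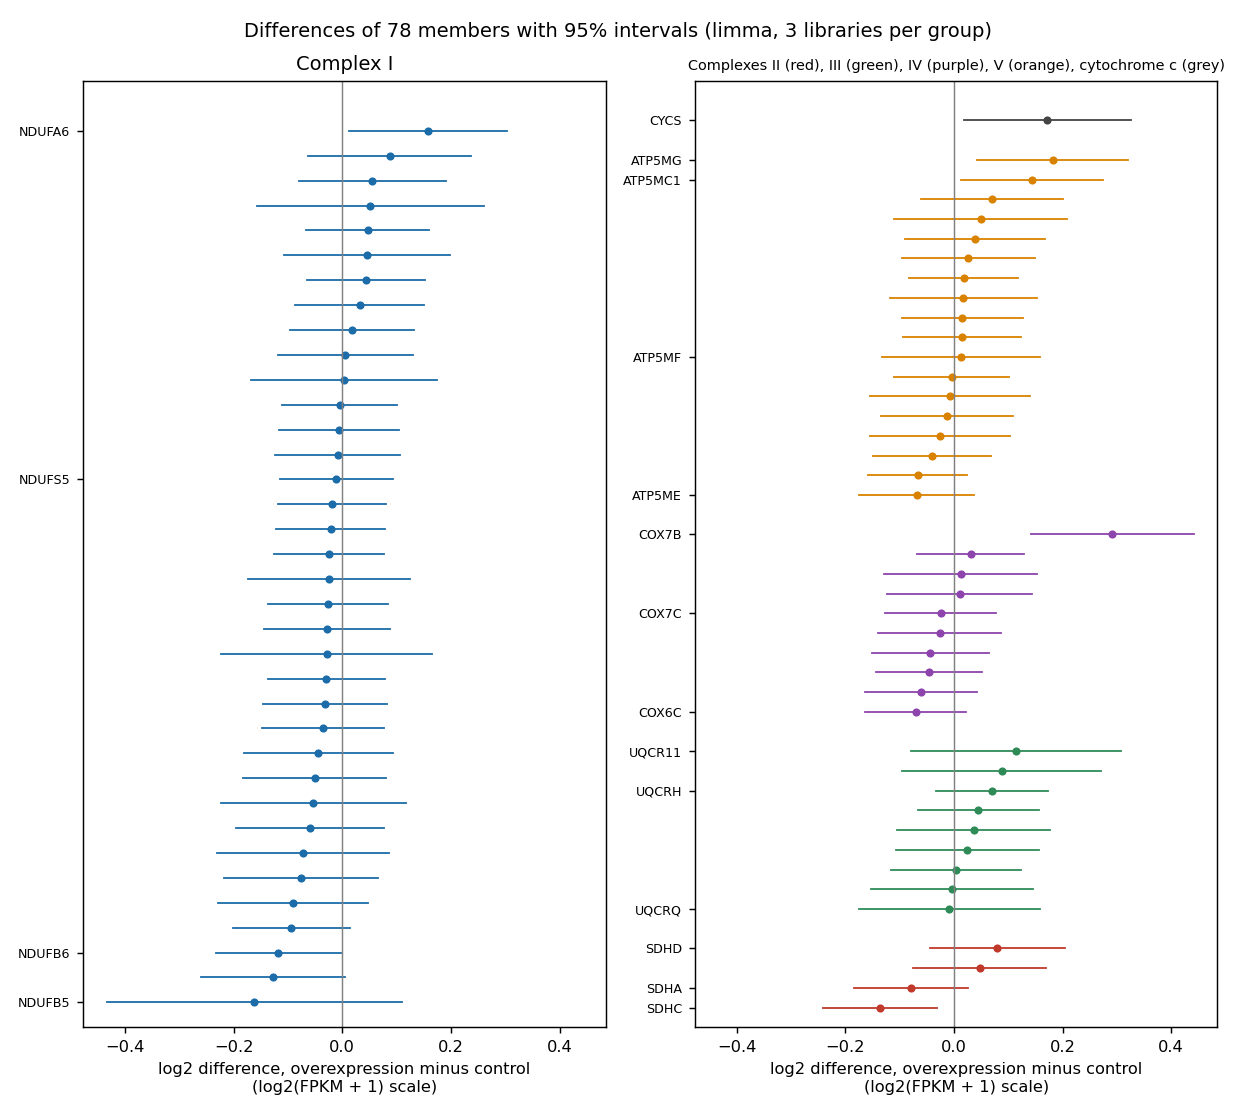
Each point is the log2 difference of 1 member, overexpression minus control on the log2(FPKM + 1) scale (x axis), with its 95% interval from limma over 3 libraries per group, sorted within each complex, with names for the extremes, the most abundant and the lowest p of each complex and for members with an unadjusted p under 0.05. The intervals cover 0 for all but 7 members, and COX7B, at 0.29, lies farthest from it.

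The members spanned a wide range of levels, with ATP5MF at the top. Mean levels over the 6 libraries ran from 20.9 FPKM for NDUFV3 to 1004 FPKM for ATP5MF, with a median of 153 FPKM, against 16.9 FPKM for all tested genes. By complex, the median was 109 FPKM for complex I, 90.0 FPKM for complex II, 164 FPKM for complex III, 180 FPKM for complex IV and 205 FPKM for complex V. Together the members made up between 2.31% and 2.44% of the summed FPKM in control libraries and between 2.32% and 2.39% in overexpressing libraries, so the ranges overlapped. Their longest coding transcripts in GENCODE 29 had a median of 1260 bases, against 3480 bases for other tested genes, and FPKM of short transcripts depend on how the effective length was set.

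**Figure D2:**
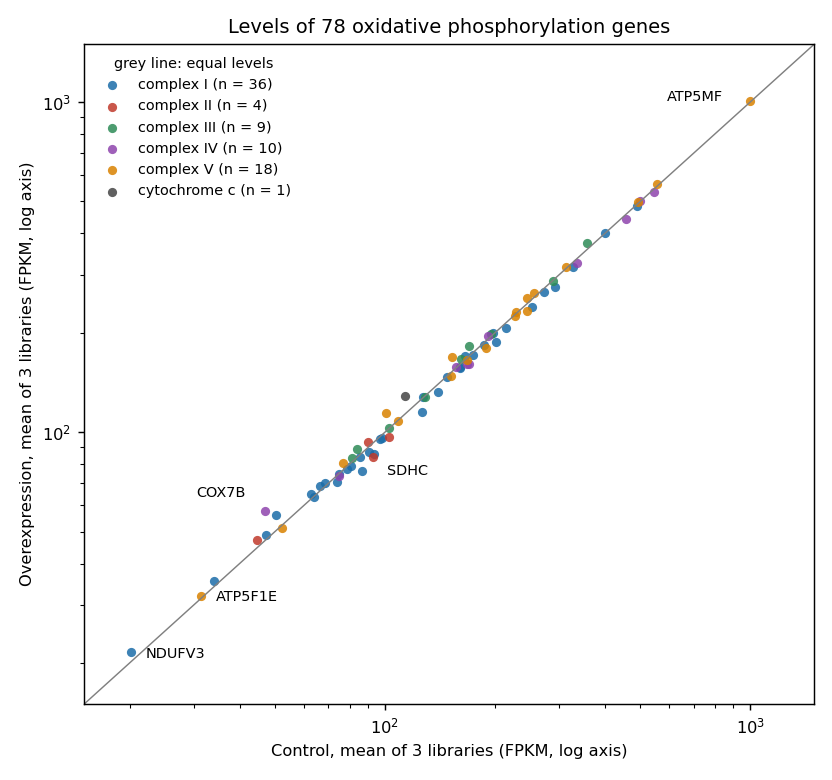
Mean FPKM of each of the 78 tested members in control (x axis) and overexpressing cells (y axis), both on log axes, 3 libraries per group, coloured by complex. The points follow the line of equal levels from NDUFV3 at 20.9 to ATP5MF at 1004 FPKM, and COX7B lies above it.

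Complex I, the NADH dehydrogenase, had all 36 members tested. Its members had a median log2 difference of -0.0248, with 11 higher and 25 lower. At an unadjusted p under 0.05, 1 of the 36 was higher and 1 lower, against 5.81% and 6.90% of all tested genes. The subunits that bind the flavin and the iron-sulfur clusters of the electron path differed little. NDUFV1, which holds the flavin and the NADH site, averaged 90.2 ± 4.22 FPKM in control and 87.0 ± 5.07 FPKM under overexpression (SD, n = 3 per group), and NDUFS1, the largest iron-sulfur subunit, averaged 63.9 ± 1.65 and 63.6 ± 1.00 FPKM. NDUFS5, an accessory subunit on the intermembrane-space side, was the most abundant at 508, 492 and 470 FPKM in control and 474, 495 and 489 FPKM under overexpression. Those values overlap.

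NDUFA6 had the largest difference upwards and the lowest p in complex I. It encodes an accessory subunit that holds the mitochondrial acyl carrier protein against the complex. NDUFA6 (ENSG00000184983, chromosome 22) was at 52.5, 51.7 and 46.4 FPKM in control and 54.8, 59.4 and 54.0 FPKM under overexpression. All 3 overexpressing libraries lay above the control libraries, by a log2 difference of 0.16 (SE 0.06, limma adjusted p = 0.355), which did not pass and was 0.1031 without control replicate 3.

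Among the lower members of complex I, NDUFB5 had the lowest value and NDUFB6 the lower p. NDUFB5 (ENSG00000136521, chromosome 3) was at 79.3, 106 and 74.0 FPKM in control and 70.3, 83.8 and 74.8 FPKM under overexpression. The groups overlapped, control replicate 2 stood above the other 5, and the log2 difference was -0.16 (SE 0.12, limma adjusted p = 0.631). Leaving out 1 library gave -0.2626 to -0.0094, the latter without control replicate 2. NDUFB6 (ENSG00000165264, chromosome 9), like NDUFB5 an accessory subunit of the membrane arm, was at 94.7, 96.1 and 88.7 FPKM in control and 83.7, 89.0 and 84.8 FPKM under overexpression. Its groups overlapped in 1 library of each, with a log2 difference of -0.12 (SE 0.05, limma adjusted p = 0.382).

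Complex II, succinate dehydrogenase, consists of 4 subunits and is the only complex of the chain that also serves the tricarboxylic acid cycle. Its median log2 difference was -0.0161, with 2 members higher and 2 lower. SDHC (ENSG00000143252, chromosome 1), a membrane anchor that binds coenzyme Q, was at 90.8, 96.2 and 90.8 FPKM in control and 82.7, 85.03 and 84.7 FPKM under overexpression. The overexpressing libraries all lay below the control libraries, with a log2 difference of -0.14 (SE 0.05, limma adjusted p = 0.268), which did not pass.

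SDHA (ENSG00000073578, chromosome 5), the flavin-carrying catalytic subunit whose promoter holds NRF1 matches, was at 101, 101 and 104 FPKM in control and 99.0, 92.7 and 98.8 FPKM under overexpression. Its groups also did not overlap, but the log2 difference was only -0.08 (SE 0.05, limma adjusted p = 0.539). It ran from -0.0949 to -0.0483 with 1 library left out, the latter without overexpression replicate 2. SDHB, the iron-sulfur subunit, averaged 90.1 ± 5.47 and 93.1 ± 1.92 FPKM, and SDHD, the second membrane anchor, averaged 44.6 ± 1.09 and 47.2 ± 2.29 FPKM (SD, n = 3 per group). Both of these ranges overlapped between groups. SDHD had the lowest level of the 4 in every library.

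Complex III, the cytochrome bc1 complex, had 9 members, 7 higher and 2 lower, with a median log2 difference of 0.0359. None reached an unadjusted p of 0.05 and none had groups without overlap. CYC1, the heme-carrying cytochrome c1, averaged 195 ± 14.2 FPKM in control and 198 ± 5.54 FPKM under overexpression, and UQCRFS1, the Rieske iron-sulfur protein, averaged 103 ± 5.65 and 103 ± 2.79 FPKM (SD, n = 3 per group). Of the core proteins, UQCRC1 averaged 162 ± 8.65 and 166 ± 11.4 FPKM, and UQCRC2 averaged 83.8 ± 7.20 and 89.1 ± 8.13 FPKM.

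The small subunits of complex III showed how far a single control library could carry a value. UQCR11 (ENSG00000127540, chromosome 19) was at 191, 172 and 145 FPKM in control and 177, 186 and 185 FPKM under overexpression. Control replicate 3 was the lowest of the 6, the groups overlapped, and the log2 difference of 0.11 (SE 0.09, limma adjusted p = 0.631) went to 0.0096 without that library. Without control replicate 1 the difference was 0.2032. UQCRQ was at 302, 312 and 254 FPKM in control and 282, 296 and 281 FPKM under overexpression, again with control replicate 3 lowest. Its log2 difference of -0.0086 went to -0.0994 without that library and to 0.0483 without control replicate 2. UQCRH, the acidic hinge protein that meets cytochrome c and the most abundant member of the complex, was at 370, 358 and 345 FPKM in control and 372, 386 and 367 FPKM under overexpression, with overlap. Its log2 difference of 0.07 (limma adjusted p = 0.580) was 0.0443 without control replicate 3 and at most 0.0951 with another library left out.

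CYCS, cytochrome c, is the mobile carrier between complexes III and IV and also a trigger of caspase activation once released from mitochondria. CYCS (ENSG00000172115, chromosome 7) was at 121, 111 and 109 FPKM in control and 119, 140 and 126 FPKM under overexpression. The groups overlapped in control replicate 1 and overexpression replicate 1, and the log2 difference of 0.17 (SE 0.07, limma adjusted p = 0.343) did not pass. It ran from 0.108, without overexpression replicate 2, to 0.2248 with 1 library left out. CYCS has 42 numbered pseudogenes in the table of names, so the split of reads between them is uncertain.

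Complex IV, cytochrome c oxidase, is built around mitochondrially encoded cores by small nuclear subunits, several of which exist as tissue isoforms. Of its 15 members, 10 were tested, 4 of them higher and 6 lower, with a median log2 difference of -0.0255. The widely expressed isoforms lay at high levels and the tissue-restricted ones at or near 0. COX6A1 averaged 457 ± 14.8 FPKM in control and 443 ± 2.77 FPKM under overexpression (SD, n = 3 per group), whereas COX6A2, the isoform of heart and skeletal muscle, was listed at 0 in all 6 libraries. COX7A2 averaged 168 ± 5.48 and 161 ± 4.37 FPKM, and COX7A1, the muscle isoform, did not exceed 0.39 FPKM.

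The remaining isoform pairs showed the same order. COX6B1 averaged 336 ± 12.9 and 326 ± 11.3 FPKM and COX8A averaged 499 ± 39.5 and 502 ± 6.12 FPKM. COX6B2, the testis isoform, lay between 0.17 and 0.32 FPKM, COX8C reached at most 0.32 FPKM, and COX7B2 was above 0 in 1 control library, at 0.15 FPKM. COX7C, the most abundant member of complex IV, was at 554, 543 and 538 FPKM in control and 539, 554 and 515 FPKM under overexpression, with overlap.

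COX7B had the largest difference and the lowest p of all 78 members. It is a small accessory subunit of complex IV. The 110 promoter bases shown for it hold no match to the motifs above, but a CCAAT match lies after the start, inside the wider window. COX7B (ENSG00000131174, chromosome X) was at 46.8, 45.6 and 48.0 FPKM in control and 52.4, 58.6 and 62.0 FPKM under overexpression. Every overexpressing library lay above every control library, with a mean of 46.8 ± 1.21 against 57.6 ± 4.89 FPKM (SD, n = 3 per group). The log2 difference was 0.29 (SE 0.07, 95% interval 0.14 to 0.44, limma adjusted p = 0.109), so it did not pass over all genes. With array quality weights, which give noisier libraries less influence, it was the only member to pass (limma adjusted p = 0.0336). Under its other alternatives it did not pass, with a limma adjusted p of 0.0654 without overexpression replicate 1 and of up to 0.352 elsewhere. The log2 difference lay between 0.2381 and 0.3579 under the 15 alternatives. Array quality weights raised the number of calls over all 11731 tested genes from 61 to 197, and 1 of the 78 members was among them. COX7B has 4 numbered pseudogenes in the table of names, and how reads were split among them is not stated in the labels or the submitters' notes.

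COX6C had the largest difference downwards in complex IV. It encodes a membrane subunit and was at 169, 172 and 167 FPKM in control and 162, 163 and 159 FPKM under overexpression. Its groups did not overlap, but the log2 difference was -0.07 (SE 0.04, limma adjusted p = 0.532). NDUFA4, the loosely bound subunit first assigned to complex I, averaged 74.8 ± 2.53 and 73.4 ± 2.63 FPKM (SD, n = 3 per group).

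Complex V, ATP synthase, had 18 of 19 members tested, with ATP5MGL listed at 0 in all libraries. Of the 18, 11 were higher and 7 lower, with a median log2 difference of 0.015, which was -0.0092 under quantile normalization. The catalytic head differed little. ATP5F1B, the catalytic beta subunit, averaged 493 ± 20.2 FPKM in control and 499 ± 17.1 FPKM under overexpression, and ATP5F1A, the alpha subunit, averaged 152 ± 7.01 and 148 ± 2.46 FPKM (SD, n = 3 per group). ATP5F1E, the epsilon subunit of the central stalk, had the lowest RNA level of the complex at 31.3 ± 0.329 and 32.0 ± 1.17 FPKM.

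In the membrane part, ATP5MF, subunit f, was the most abundant member of all, at 1083, 1001 and 918 FPKM in control and 1010, 1044 and 970 FPKM under overexpression, with overlap. The readthrough gene ATP5MF-PTCD1, which shares exons with it, averaged 3.70 FPKM over the 6 libraries. ATP5ME, subunit e, had the lowest log2 difference of the complex at -0.07 (-0.0951 to -0.0441 with 1 library left out), with levels of 253, 236 and 245 FPKM in control and 228, 230 and 242 FPKM under overexpression. ATP5IF1, the inhibitor that stops the enzyme from running backwards when the membrane potential falls, averaged 314 ± 9.53 and 317 ± 12.8 FPKM (SD, n = 3 per group).

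ATP5MG, subunit g, had the largest difference in complex V. ATP5MG (ENSG00000167283, chromosome 11) was at 102, 107 and 93.2 FPKM in control and 118, 117 and 108 FPKM under overexpression. The overexpressing libraries all lay above the control libraries, though the nearest pair was only 107 against 108 FPKM, and the log2 difference of 0.18 (SE 0.06, limma adjusted p = 0.268) did not pass. It has 8 numbered pseudogenes in the table of names.

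The ring subunit c is encoded by ATP5MC1, ATP5MC2 and ATP5MC3, which make the same mature protein behind different import sequences. ATP5MC1 (ENSG00000159199, chromosome 17) was at 151, 154 and 154 FPKM in control and 167, 183 and 157 FPKM under overexpression, without overlap. Its log2 difference was 0.14 (SE 0.06, limma adjusted p = 0.351). Leaving out 1 library gave 0.0848, without overexpression replicate 2, to 0.1938. ATP5MC2 averaged 227 ± 18.6 and 225 ± 10.3 FPKM and ATP5MC3 averaged 228 ± 14.8 and 231 ± 12.03 FPKM (SD, n = 3 per group). The difference between the 3 genes in their response was not tested.

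**Figure D3:**
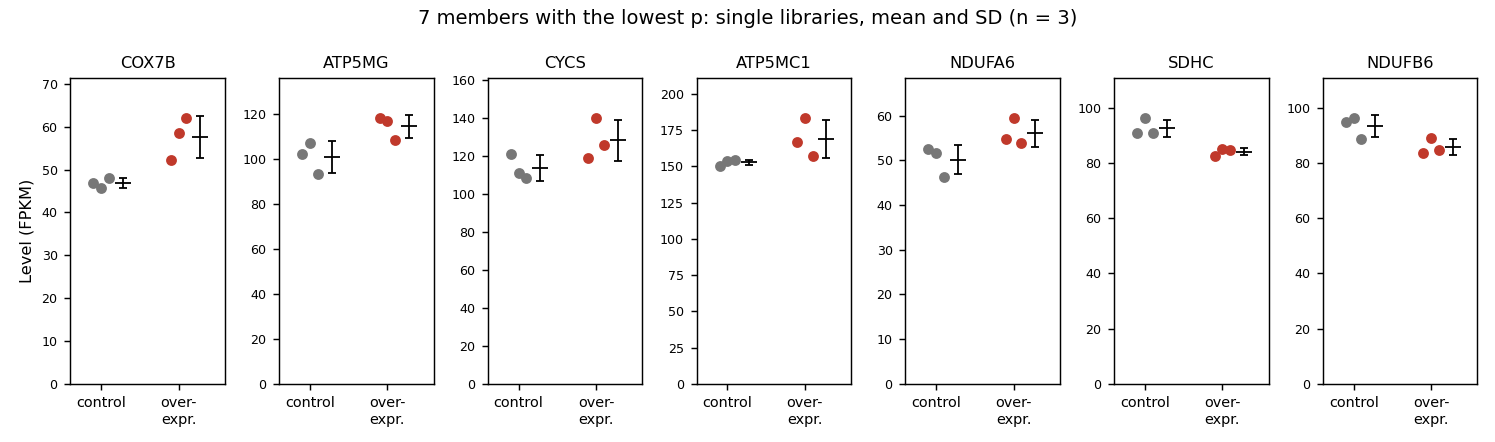
FPKM in each library for the 7 members with an unadjusted p under 0.05, control in grey and overexpression in red, with the group mean and SD as a bar (n = 3 per group). COX7B, ATP5MG, ATP5MC1 and NDUFA6 had all overexpressing values above the control values, SDHC had them all below, and in CYCS and NDUFB6 the groups overlapped.

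With all 6 libraries, groups without overlap were less frequent among members than among all tested genes, and this turned with the library left out. The 3 overexpressing values lay above the 3 control values in 4 members (5.13%), against 8.81% of all tested genes. They lay below in 6 members (7.69%), against 10.1% of all tested genes. The 6 were SDHA, SDHC, COX6C and, named here after their values were seen, NDUFB1, NDUFC1 and ATP5F1C. Fewer libraries overlap less often in any gene, so each count is given with its own background. Without control replicate 1 the number higher was 13 (16.7%), against 13.4% of all tested genes. Without overexpression replicate 1 or 3 it was 8 (10.3%), against 14.6% and 13.1%. Without control replicate 3 the number lower was 20 (25.6%), against 16.6% of all tested genes, so the share was then above the background.

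Most members were lowest in the same control library. Control replicate 3 gave the lowest of the 3 control values for 60 of the 78 members (76.9%), against 47.0% of the 5096 tested genes at or above the level of the lowest tested member. Control replicate 1 gave the highest control value in 50 members (64.1%), against 40.5%. The median deviation of the members from their control mean was 0.0464 in control replicate 1, 0.0125 in control replicate 2 and -0.0541 in control replicate 3. In overexpression replicates 1 to 3 it was -0.0132, 0.0285 and -0.0269, so the overexpressing libraries lay inside the range of the control libraries. After rescaling to TPM the same values were 0.024, 0.0061 and -0.0254 in control and -0.0223, 0.0027 and -0.0345 in overexpression, so that overexpression replicate 3 lay below all controls. Control replicate 3 also had the lowest summed FPKM of the 6 libraries. Without control replicate 3 the median log2 difference of the members was -0.0396, against -0.0055 with all 6 libraries. Why the members were lower in that library was not tested. Over all 6 libraries the coefficient of variation of a member's FPKM had a median of 4.54%, with the highest value, 15.7%, for NDUFB5, beside 5.87% for the 5096 genes. The median level of those genes was lower than that of the members, at 47.1 against 153 FPKM.

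**Figure D4:**
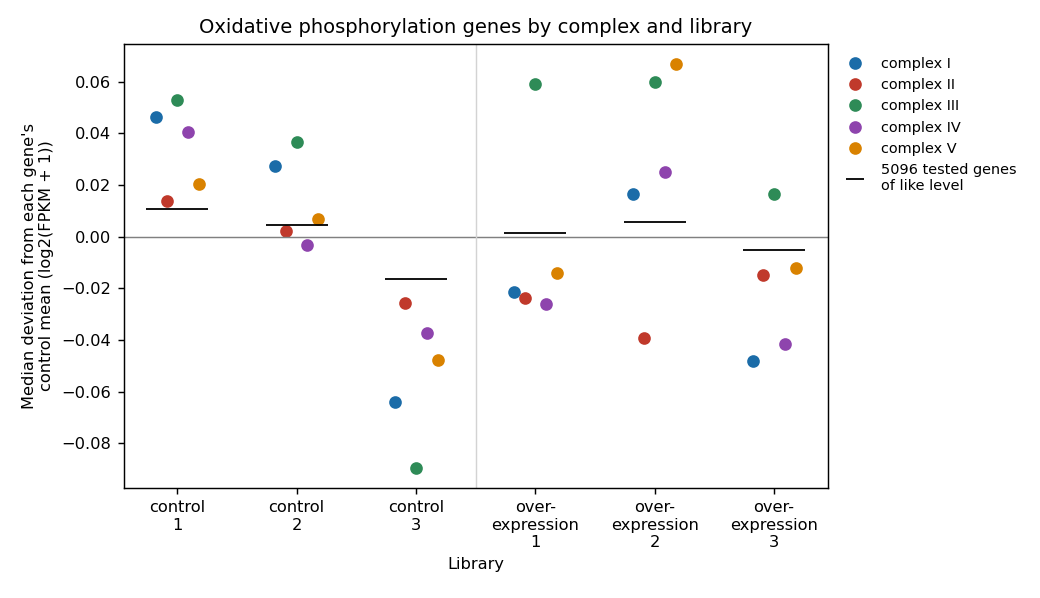
Median deviation of the tested members of each complex from the gene's mean in control, on the log2(FPKM + 1) scale (y axis), in each of the 6 libraries (x axis). Black bars give the same for the 5096 tested genes at or above the level of the lowest tested member. In control replicate 3 all 5 complexes lie below 0, and complex III is lowest there, while the overexpressing libraries spread on both sides of 0.

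Subunits whose symbols fall outside the pattern gave no call. COX4I1, the largest nuclear subunit of complex IV, averaged 377 ± 23.7 FPKM in control and 362 ± 7.02 FPKM under overexpression, and its isoform COX4I2 was listed at 0 in all libraries. NDUFAB1, the acyl carrier protein bound by NDUFA6, averaged 97.0 ± 1.72 and 101 ± 4.58 FPKM. COX7A2L, which joins complexes III and IV, averaged 54.6 ± 3.29 and 55.8 ± 2.00 FPKM. Of this list 6 genes were tested, 3 higher and 3 lower. The lowest p in the list was that of DMAC2L, an ATP synthase factor, at 7.64 ± 0.587 and 9.51 ± 2.19 FPKM (SD, n = 3 per group, limma adjusted p = 0.520). None of the 13 mitochondrially encoded subunits was found by symbol among the genes listed in all 6 libraries. Nuclear and mitochondrial RNAs could therefore not be set against each other.

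Assembly factors, which insert cofactors and join subunits without staying in the finished complex, gave no call either. None of the 18 tested factors of complex I passed, nor of the 4 of complex II, 9 of complex III, 24 of complex IV and 5 of complex V. The median log2 differences of these lists were 0.0238, 0.0426, 0.0485, -0.0002 and 0.0273. TTC19, which helps clear Rieske protein fragments from complex III, came nearest to the threshold. TTC19 was at 57.9, 54.4 and 54.0 FPKM in control and 47.3, 46.0 and 47.4 FPKM under overexpression, all lower, with a log2 difference of -0.23 (SE 0.05, limma adjusted p = 0.0949).

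The lowest p of each other assembly list also missed the threshold. SDHAF3, a factor for the iron-sulfur subunit of complex II, was at 3.82, 6.60 and 4.56 FPKM in control and 5.91, 11.4 and 8.13 FPKM under overexpression. Its groups overlapped, with a log2 difference of 0.65 (SE 0.22, limma adjusted p = 0.268). NUBPL, an iron-sulfur carrier for complex I, averaged 4.72 ± 0.937 and 3.39 ± 0.171 FPKM (log2 difference -0.37, limma adjusted p = 0.277). SCO1, a copper chaperone of complex IV, averaged 31.1 ± 0.277 and 34.5 ± 0.7504 FPKM (log2 difference 0.15, limma adjusted p = 0.286), and FMC1, a factor of complex V, averaged 16.5 ± 1.06 and 18.3 ± 0.790 FPKM (SD, n = 3 per group, log2 difference 0.15, limma adjusted p = 0.451). In NUBPL, SCO1 and FMC1 the groups did not overlap, though the nearest FMC1 values were 17.48 and 17.53 FPKM.

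Regulators of mitochondrial gene expression formed a further list, and none of the 16 tested passed. Of these, 13 were higher and 3 lower, with a median log2 difference of 0.0882, beside -0.0008 over all tested genes. TFB1M, TWNK and PPRC1 were the 3 of the 16 that were higher at an unadjusted p under 0.05 in limma, and 0 were lower. Of all tested genes, 5.81% were higher and 6.90% lower at that threshold. TFB1M, a mitochondrial rRNA methyltransferase, had the lowest p, with 10.03 ± 0.521 FPKM in control and 11.8 ± 0.806 FPKM under overexpression (limma adjusted p = 0.331). TFAM, which packages mitochondrial DNA, averaged 33.3 ± 1.3 and 35.0 ± 4.07 FPKM (limma adjusted p = 0.811). PPARGC1A, the coactivator known for inducing respiratory genes, was near the lower limit of the test at 1.09 ± 0.450 and 1.16 ± 0.265 FPKM (SD, n = 3 per group, limma adjusted p = 0.918).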

How the data were processed

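The authors deposited 1 table of gene-level FPKM per library, rounded to 2 decimals. The submitters' processing notes name hg18 as build and, without saying which step each served, edgeR, RSEM 1.3.1, Cufflinks 2.2.1, Bowtie and TopHat. Per the labels' protocols the libraries were poly(A)-selected and stranded, while the series' design text describes cytoplasmic RNA without that selection. Incomplete last lines of 5 tables were not read. Symbols came from a table of gene names (19447 of 20330 Ensembl identifiers matched), and gene types, chromosomes and transcript lengths from GENCODE 29.

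Genes that averaged 1 FPKM or more were tested on log2(FPKM + 1) without further scaling, which understates differences of low genes. limma 3.58.1 in R 4.3.3 (limma-trend, group as the only term, two-sided, all 6 libraries, Benjamini-Hochberg over 11731 genes, threshold 0.05) was checked on simulated data. An exact permutation test of 3 against 3 libraries cannot go below 0.1. Summaries were made with numpy 2.4.6 and pandas 2.3.3 under Python 3.11.15. The alternatives were another pseudocount, other filters, scalings, variance models and library weights, a replicate block, and leaving out each library.

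Members and lists were chosen with earlier results of these data known. The genes named with full values were, per complex, those with the largest increase, the largest decrease, the lowest p and the highest level, all of complex II, CYC1, CYCS, ATP5IF1, the isoform groups, and the lowest p of each list. Others were named after their values were seen, as examples of their complex's function or for a count.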

Additional observations from a re-analysis of the deposited data

How the results depend on the processing

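No member passed the adjusted threshold in limma under any alternative except with array quality weights, where COX7B made the count 1. Of 27 named members, 17 kept their direction under all 15 alternatives. The other filters, the fit without a trend and the replicate block leave a log2 difference unchanged by construction. They could therefore not turn a direction, and only the remaining alternatives could. The number of all tested genes past the threshold was 61, against 1 with no filter, 1 without a trend, 197 with array quality weights, and between 1 and 60 with 1 library left out. Members lower at an unadjusted p under 0.05 numbered 2, against 6 after rescaling to TPM, 4 under quantile normalization, 1 without a trend, 7 with array quality weights, and between 0 and 5 with 1 library left out. The share of all tested genes that were lower moved too, from 6.90% to 8.07% with TPM, 7.13% with quantile normalization, 6.66% without a trend and 9.62% with weights, where the members' shares were 7.69%, 5.13%, 1.28% and 8.97%. Members higher numbered 5, against 2 without a trend, 3 with array quality weights, and between 1 and 5 with 1 library left out. Of all tested genes 5.71% were higher without a trend and 8.27% with weights, where the members' shares were 2.56% and 3.85%. Leaving out 1 library gave 4.13% to 6.63% of all tested genes higher and 4.85% to 7.62% lower. With 1 library left out, members higher without overlap numbered between 4 and 13 and members lower without overlap between 6 and 20, while the shares of all tested genes ran from 12.3% to 16.6% and from 13.5% to 16.7%. The median log2 difference of complex II then lay between -0.0337 and 0.0005, that of complex I between -0.0436 and 0.0045, that of complex III between 0.0096 and 0.0623, that of complex IV between -0.0546 and 0.0001, that of complex V between -0.0133 and 0.0321, and that of all members between -0.0396 and 0.0193.

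Differences near 0 changed sign. After rescaling to TPM, COX8A was at -0.0033 and ATP5MF at -0.0012. Under quantile normalization ATP5IF1 was at -0.0108, COX8A at -0.0193 and ATP5MF at -0.0431. With array quality weights CYC1 was at -0.0086, COX8A at -0.0098 and ATP5MF at -0.012. With 1 library left out, the log2 differences ran from -0.0003 to 0.0859 for SDHB, -0.0358 to 0.0646 for CYC1, -0.014 to 0.0443 for ATP5IF1, -0.0994 to 0.0483 for UQCRQ, -0.0485 to 0.0044 for COX7C, -0.0487 to 0.0656 for COX8A, -0.0473 to 0.0713 for ATP5MF, -0.078 to 0.0276 for ATP5MC2, -0.0282 to 0.0645 for ATP5MC3 and -0.0403 to 0.0153 for NDUFS5. The cause was not tested.

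Same-numbered libraries did not deviate together (correlations of -0.0398, -0.0576 and 0.0446 over the tested genes), so the numbers were not taken as pairs. With the replicate number as a block, 19 of all tested genes and 0 members passed, with 5 members (6.41%) higher and 3 (3.85%) lower at an unadjusted p under 0.05, against 5.56% and 6.21% of all tested genes. FPKM without read totals give no counting error for single libraries.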

Other observations

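The steps that feed the respiratory chain gave no call. None of the 16 tested genes of the tricarboxylic acid cycle and pyruvate dehydrogenase passed, with 8 higher, 8 lower and a median log2 difference of 0.0052. CS, citrate synthase, averaged 93.7 ± 3.16 FPKM in control and 95.3 ± 5.74 FPKM under overexpression (SD, n = 3 per group). PDHA1, a catalytic subunit of pyruvate dehydrogenase, had the lowest p of the list, at 105, 98.9 and 94.4 FPKM in control and 104, 112 and 109 FPKM under overexpression (limma adjusted p = 0.393). The 13 genes of coenzyme Q synthesis did not either, with a median of 0.0168.

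Transport of adenine nucleotides and phosphate also gave no call among 7 tested genes, with a median log2 difference of 0.0136. SLC25A5, the adenine nucleotide translocase of dividing cells, averaged 821 ± 40.0 FPKM in control and 829 ± 46.2 FPKM under overexpression. SLC25A6 averaged 106 ± 6.88 and 103 ± 2.97 FPKM, and SLC25A4, the isoform of heart and muscle, averaged 23.0 ± 0.920 and 22.9 ± 1.42 FPKM (SD, n = 3 per group). VDAC1, a pore of the outer membrane, was at 203, 199 and 193 FPKM in control and 212, 217 and 207 FPKM under overexpression, without overlap (log2 difference 0.10, limma adjusted p = 0.397).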
